A study of Mus musculus with 16 samples.

Results

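Loss of Men1 alone was described in mouse pancreas by comparing 4 libraries from mice with floxed Men1 and the Pdx1-Cre transgene (MC) with 4 from wild-type mice (WT), 8 of the 16 libraries of the series. The genes described were chosen by level alone: those with at least 10 normalized counts in at least 4 of the 16 libraries, 14220 of the 15156 genes in the table. MC mice were Men1 fl/fl Pdx1-Cre Tg, and the WT label names neither a floxed allele nor a Cre transgene, so that carrying Cre and losing Men1 cannot be told apart in this comparison. The remaining libraries, used here to set the MC changes beside another Men1 contrast, were 4 from Daxx fl/fl Men1 fl/fl Pdx1-Cre Tg mice (DMC) and 4 from Daxx fl/fl Pdx1-Cre Tg mice (DC). Every animal of every genotype, WT included, was 6 to 10 weeks old at treatment and received caerulein at 50 ug/kg in 4 hourly injections, 3 times a week for 3 weeks. Pancreas was collected 5 days after the last injection, and total RNA of the whole organ was sequenced.

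Men1 encodes menin, a nuclear scaffold protein that joins histone H3 lysine 4 methyltransferase complexes of the MLL family and is lost in multiple endocrine neoplasia of the MEN1 type and in many pancreatic neuroendocrine tumours. Pdx1-Cre acts in early pancreatic progenitors, so the floxed gene is deleted in acinar, ductal and islet lineages, while fibroblasts, vessels, nerves and immune cells of the organ keep it; Pdx1 is also active in the neighbouring distal stomach and duodenum. Caerulein is a cholecystokinin analogue that overstimulates acinar cells, and repeated courses give a chronic pancreatitis with acinar loss, ductal metaplasia, fibrosis and regeneration.

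The libraries held 13481063 to 21302532 reads in MC and 16571431 to 23518430 reads in WT, and the 10 most abundant genes, mostly digestive enzymes, took 36.7% to 51.8% of them. A gene at 3 reads stood at 2.18 to 5.30 normalized counts, so values near that size rest on a few reads, and this floor covers counting error only. Acinar markers were high in all 8 libraries: Cpa1, a carboxypeptidase, ranged from 358929 to 761970 normalized counts in MC and from 561392 to 1088114 in WT. In whole organ RNA, fewer cells of a type and less RNA per cell cannot be told apart. Y-linked genes were high in some libraries of every group and low in others. Their mean log2 level was 9.55, 9.3, 0.5 and 0.0 in MC and 9.48, 9.38, 0.22 and 0.0 in WT replicates 1 to 4. In DMC it was 9.4, 1.88, 9.14 and 0.47, and in DC 9.27, 0.0, 0.0 and 0.42. Lymphoid genes split the WT libraries. Mean log2 levels of B and T cell genes were 4.02 to 6.23 in MC, 3.78 and 5.52 in WT replicates 1 and 4, and 7.51 and 8.17 in WT replicates 2 and 3. Ctrc, which encodes chymotrypsin C, split them another way, with 155559.9, 139054, 137506 and 83792 normalized counts in MC and 5136, 3600.2, 2869 and 189195 in WT. WT replicate 4 therefore lay above all MC libraries, and the other 3 WT libraries far below them. Gm10036 had the same split, at 208, 409.6, 558 and 545 normalized counts in MC and 3.54, 4.52, 8.16 and 547 in WT. Counts of calls without the libraries that stand apart are given with the number of calls below.

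Men1 itself was lower in every MC library. Its level was 127, 116, 136 and 147 normalized counts in MC replicates 1 to 4 and 331, 345, 459 and 336 in WT replicates 1 to 4. The groups did not overlap, and the MC mean of 132 ± 13.3 was 35.8% of the WT mean of 368 ± 61.3 (SD, n = 4 each). On the log2(normalized count + 1) scale used for every difference here, that was -1.47 ± 0.13 (SE; limma adjusted p = 6.16e-05, Benjamini-Hochberg over all genes tested). An exact two-sided permutation test over the 70 ways of assigning the 8 libraries gave p = 0.0286, the smallest it allows. The gene lies on chromosome 19 at 6334979 to 6340891 on the plus strand (GRCm38). Transcript left in MC comes from the whole organ, and the part of cells outside the Pdx1 lineage was not tested.

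No gene for a partner of menin passed the threshold. Of 14 listed members of the menin and MLL complex, Men1 was the only one called (7.14%, against 0.295% of all genes lower), and 13 were not. Kmt2a, which encodes the MLL1 methyltransferase, stood at 1771, 1935, 1073 and 1109 normalized counts in MC and 1292, 1693, 1704 and 1352 in WT, overlapping ranges. Paxip1, which encodes the PTIP subunit of related methyltransferase complexes, had no overlap, at 435, 467, 542 and 439.6 in MC and 1039.5, 955, 1001 and 717 in WT, but missed the threshold (log2 difference -0.97, limma adjusted p = 0.0743). Cell cycle inhibitors and other genes known as menin targets gave 0 calls among 14 tested (1 at an unadjusted p under 0.05), 7 positive differences and a median of 0.00. Cdkn1b, which encodes the p27 inhibitor that menin activates in islets, was at 608, 514, 627 and 626 normalized counts in MC and 562, 509, 664 and 669 in WT. Within 5000000 bases of Men1 on chromosome 19, 207 other genes were tested and 1 was called, where 0.781% of all genes were. That was the pepsinogen gene Pga5 at 4333977 bases, which is described with the stomach genes. Of the 207, 18 reached an unadjusted p under 0.05, as did 12.7% of all genes.

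Across the transcriptome, 111 of 14220 genes passed an adjusted limma p of 0.05, which is 0.781%. Of these, 69 were higher in MC (0.485% of genes tested) and 42 were lower (0.295%). At an unadjusted p under 0.05 there were 1813 genes (12.7%; 7.51% higher and 5.24% lower), and 47.1% of all genes had a positive difference, with a median of -0.02. MC and WT did not overlap for 1050 genes (7.38%; MC higher for 4.16% and lower for 3.23%), and for 110 of the 111 called. All 111 encode proteins, and their log2 differences ran from -3.85 to 9.67. The largest rises included Cym, Gkn3 and Pga5, genes of the stomach, and the largest falls Nat8f5, Tdh, Nat8f2 and Obp2b, as the plot of difference against level shows. The number of calls rests on single libraries: leaving out MC replicate 4, 2 or 1 gave 38, 43 or 47 calls, leaving out WT replicate 2 or 3 gave 49 or 62, and leaving out DC replicate 1, which shares only the estimate of the spread, gave 189. Of the 111 genes, 27 kept their call whichever of the 16 libraries was left out, 35 kept it without both WT libraries of high lymphoid level, 76 with the lymphoid level as a covariate and 88 without WT replicate 4, and 0 changed sign. Only 17 of the 111 kept their call in every alternative tried.

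**Figure D1:**
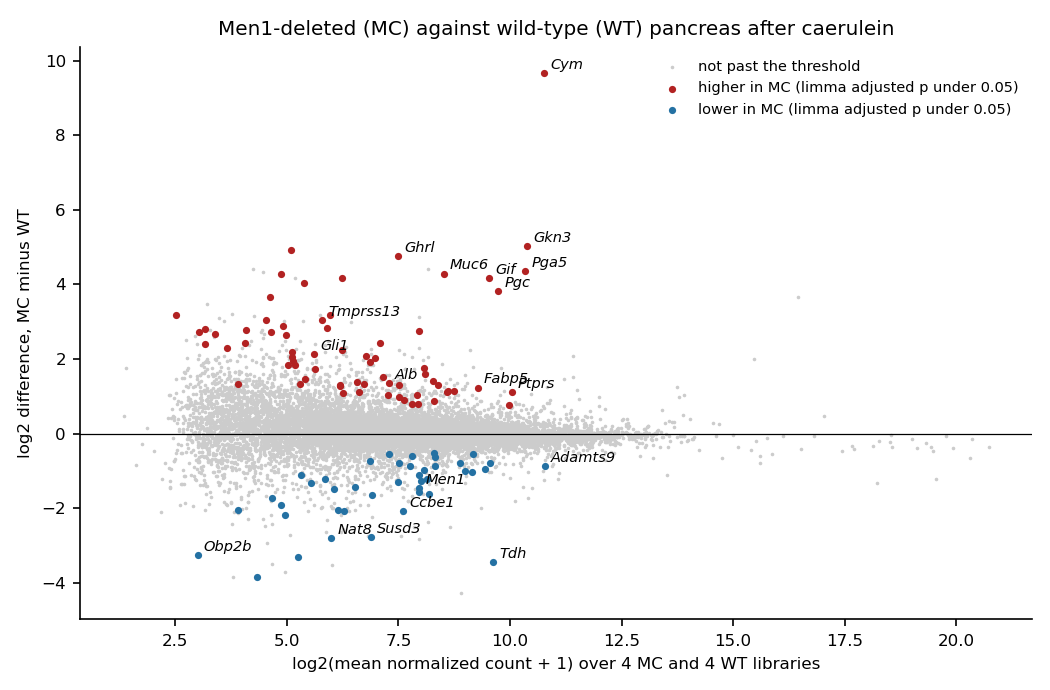
Log2 difference of MC minus WT (vertical axis) against the log2 mean normalized count over the 8 libraries (horizontal axis), a point per gene tested. Red points are the 69 genes higher in MC, blue points the 42 lower, grey points the genes not past the threshold; Cym lies alone at 9.67, and Men1 at -1.47.

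Genes of the gastric chief cell were among the largest rises, led by Cym. Chief cells sit at the base of the stomach gland and secrete pepsinogens, the inactive precursors of acid proteases. Of 10 listed chief cell genes tested, 5 rose (50.0%, against 0.485% of all genes), 0 fell and 5 did not pass, with a median log2 difference of 2.91. Cym, under 10 in every WT and DC library, passed the filter on low values only through the MC and DMC libraries where it is high. Slc9a4 also needed those libraries, being under 10 in every WT library and at 31.8, 19.9, 9.12 and 3.30 in DC. The share called therefore rests in part on members that entered through the groups where they are high. With no such filter the median was 2.0. To show the control regions of genes that rose together, the 250 bases before the transcription start are given for Cym, Pgc and Gif from RefSeq (GRCm38.p6), 5′ to 3′ on the strand of the gene, with a TATAAA match in capitals. Pga5 had no entry.
Cym, chr3:107221733-107221982, minus strand: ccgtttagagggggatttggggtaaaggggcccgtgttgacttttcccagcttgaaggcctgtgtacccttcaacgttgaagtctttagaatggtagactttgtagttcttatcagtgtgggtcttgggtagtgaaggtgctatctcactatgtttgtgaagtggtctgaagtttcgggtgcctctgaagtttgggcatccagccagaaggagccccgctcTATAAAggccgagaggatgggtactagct
Pgc, chr17:47726592-47726841, plus strand: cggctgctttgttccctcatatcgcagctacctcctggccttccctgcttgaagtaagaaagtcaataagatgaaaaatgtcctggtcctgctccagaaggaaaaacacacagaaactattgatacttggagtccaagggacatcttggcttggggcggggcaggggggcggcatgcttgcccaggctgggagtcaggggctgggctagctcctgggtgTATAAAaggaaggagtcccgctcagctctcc
Gif, chr19:11747309-11747558, plus strand: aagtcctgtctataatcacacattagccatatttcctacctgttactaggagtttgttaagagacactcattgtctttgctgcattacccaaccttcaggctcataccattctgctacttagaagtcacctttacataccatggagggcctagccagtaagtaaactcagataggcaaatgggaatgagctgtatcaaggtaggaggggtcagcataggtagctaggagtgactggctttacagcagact
The letters TATAAA start 29 bases before the start of Cym and 31 before that of Pgc on the printed strand, and are not in the Gif window. They occur on either strand in 12.4% of 32851 promoter windows of this length. Another 3 motifs were searched on both strands and not found in these promoters: AGATAA, which lies in 9.99% of windows, TGTTTAC, which lies in 3.17%, and AAGGTCA, which lies in 4.08%.

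Cym encodes chymosin, the milk-clotting pepsin relative that mice make in the infant stomach. It had 2089, 768, 1219 and 9856 normalized counts in MC and 3.54, 0, 0 and 8.78 in WT, where only 10 reads fell on it in all 4 libraries. Every MC library was at least 768 and every WT library under 10, and the difference was 9.67 ± 0.88 (SE, limma adjusted p = 6.16e-05). Because WT lies near the floor of 3 reads, the size of this difference depends on the pseudocount, and it ranged from 8.16 to 10.31 over the alternatives tried. Pga5, a pepsinogen A gene at chromosome 19, 10668956 to 10678071, minus strand, had 2091, 775, 1413 and 5654 normalized counts in MC and 126, 54.2, 83.2 and 122 in WT (4.36 ± 0.69, limma adjusted p = 0.00947). Pgc, the pepsinogen C gene, had 1512, 891, 986 and 2969.8 in MC and 150.3, 46.1, 96.3 and 143 in WT (3.82 ± 0.81, limma adjusted p = 0.0401). Both pepsinogens were thus detected in WT pancreas, at levels several times below the lowest MC library.

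Gif encodes intrinsic factor, the vitamin B12 carrier that in mice is made by chief cells. Its level was 811, 305, 719.6 and 3848 normalized counts in MC and 42.4, 59.7, 22.8 and 101 in WT (4.18 ± 0.85, limma adjusted p = 0.0333). Slc9a4 encodes a sodium and proton exchanger of gastric glands and had 96.8, 81.0, 78.8 and 317 in MC and 7.07, 2.71, 4.90 and 9.88 in WT (4.17 ± 0.73, limma adjusted p = 0.0159). Among the 5 members that did not pass was Bhlha15, the secretory regulator MIST1 that acinar cells share with chief cells, at -0.50, and the stem cell receptor gene Lgr5 at 2.0 (limma adjusted p = 0.18). Lgr5 had 24.5, 20.6, 55.6 and 109.5 in MC and 5.30, 13.6, 5.71 and 20.9 in WT, which overlap. Mfge8, a milk fat globule protein, went against the list without overlap, at 692, 811, 1003 and 924 in MC and 1391, 1944, 2952 and 1113 in WT, and missed the threshold (-1.02, limma adjusted p = 0.0544). MC replicate 4 was the highest library for all 5 called chief cell genes, and the mean log2 level of the list was 8.96 to 10.61 in MC and 6.50 to 7.44 in WT, without overlap. Cym and Pga5 kept their calls without any single library. With WT replicates 2 and 3 both left out, that of Pga5 was lost (limma adjusted p = 0.0617). The call of Slc9a4 ended without MC replicate 4 or WT replicate 2, that of Gif without MC replicates 1, 3 or 4 or WT replicates 1, 2 or 3, and that of Pgc without any single MC library, WT replicates 1, 2 or 3 or DC replicates 2 or 3. In those fits the log2 difference stayed between 3.70 and 4.41 for Slc9a4, 3.49 and 4.70 for Gif and 3.46 and 4.04 for Pgc.

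Mucous neck cell genes were split. Neck cells secrete the gland mucin and lie above the chief cells. Of 12 tested, 3 rose, 1 fell and 8 did not pass, so 33.3% were called against 0.781% of all genes. Gkn3, a gastrokine of mouse neck cells, had 1639.6, 546, 1275 and 7059.6 normalized counts in MC and 51.3, 38.9, 46.5 and 73.6 in WT (5.02 ± 0.99, limma adjusted p = 0.0293). Muc6, the gland mucin, had 930.1, 357, 264 and 1246 in MC and 24.8, 19.9, 33.5 and 39.5 in WT (4.29 ± 0.92, limma adjusted p = 0.0431). Sftpd, the collectin surfactant protein D, was tighter, at 194, 162, 131 and 218 in MC and 35.4, 35.3, 62.8 and 34.0 in WT (2.07 ± 0.29, limma adjusted p = 0.00508). Galnt6, a glycosyltransferase that starts mucin-type sugar chains, moved the other way, with 162, 111, 185 and 113 in MC and 375, 521, 513 and 346 in WT (-1.62, limma adjusted p = 0.046). Tff2, the trefoil peptide that marks neck cells, did not pass: it was abundant in both groups, at 26285, 28784, 26599 and 19840.5 in MC and 27992, 13274, 14938 and 34117 in WT. Without single MC or WT libraries the differences of Gkn3 and Muc6 were 4.33 to 5.56 and 3.92 to 4.66; the call of Gkn3 ended without MC replicates 1, 3 or 4 or WT replicates 1, 2 or 3, that of Muc6 without any single library of the 8, DC replicate 2 or DMC replicate 4, and that of Galnt6 without any single library of these 8 except WT replicate 4 and without DC replicates 2 or 3 or DMC replicates 2 or 4.

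Some other genes that rose were close to the floor in WT. A4gnt, Vsig1 and Sh2d7 were under 10 in every WT and DC library, and passed the filter on low values only through MC and DMC libraries. A4gnt, the enzyme that puts the terminal sugar on gland mucin, had 58.8, 17.5, 25.3 and 214 normalized counts in MC and 1.77, 1.81, 4.08 and 1.10 in WT (limma adjusted p = 0.0493). Vsig1, a junction protein of stomach epithelium, had 27.0, 23.8, 27.3 and 100.1 in MC and 5.30, 2.71, 2.45 and 0 in WT (limma adjusted p = 0.0275). Sh2d7, a small adaptor gene that overlaps Cib2 on the opposite strand, had 39.2, 17.5, 39.4 and 165 in MC and 1.77, 0, 0 and 1.10 in WT, where it had 2 reads in all (limma adjusted p = 0.00947). Cib2 itself was not past the threshold (-0.07), and how the counting used strand is not given in the sources used here. Ghrl, which encodes the hunger hormone ghrelin made by endocrine cells of the stomach and a few islet cells, had 161, 71.4, 269 and 892 in MC and 5.30, 6.33, 5.71 and 16.5 in WT (4.75 ± 0.81, limma adjusted p = 0.0133). Olfm4, an antiadhesive glycoprotein of gut stem and progenitor cells, had 99.3, 38.1, 118 and 192 in MC and 8.84, 16.3, 6.53 and 9.88 in WT (3.17 ± 0.59, limma adjusted p = 0.0236). Olfm4 also needed MC or DMC libraries to pass that filter, being at 55.7, 14.1, 7.98 and 7.70 in DC. Sh2d7 and Ghrl kept their calls without any single library, but not with WT replicates 2 and 3 both left out (limma adjusted p = 0.064 and 0.0755). Olfm4 lost its call without MC replicates 1, 3 or 4 or WT replicate 3 (2.84 to 3.61 over single libraries left out), Vsig1 without MC replicates 1, 2 or 4 or WT replicates 2 or 3 (3.12 to 4.00), and A4gnt without any single library of the 8, DC replicates 2 or 3 or DMC replicate 4 (3.35 to 4.53).

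**Figure D2:**
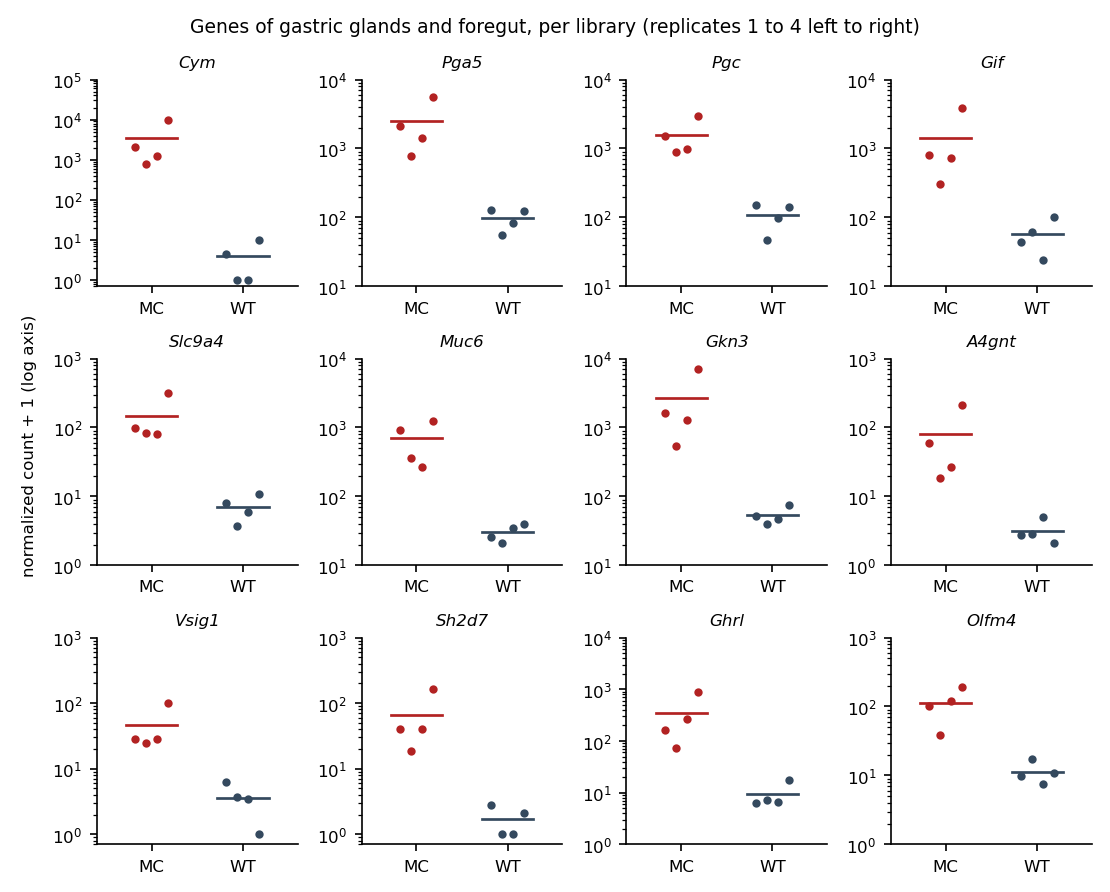
Normalized count plus 1 on a log axis for 12 genes that rose, most of them of gastric glands and foregut. Each point is a library, with MC left of WT and a bar at the group mean (n = 4 each). No gene has an MC library as low as any WT library, and MC replicate 4, the rightmost MC point, is the highest for all 12.

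Stomach markers beyond these genes were few. Of 17 listed pit and parietal cell genes, 9 were tested. Of those, 1 rose (Vsig1, 11.1%, against 0.485% of all genes), 0 fell and 8 did not pass. The median difference was 0.98, and 0.20 when no filter on low values was used. The mean log2 level of this list was 6.39, 6.45, 6.54 and 7.31 in MC and 6.48, 5.73, 5.42 and 5.29 in WT, so WT replicate 1 overlapped MC. Atp4a, the acid pump subunit that defines parietal cells, had 12.3, 19, 36.4 and 41.3 normalized counts in MC and 26.5, 15.4, 2.45 and 5.49 in WT. The pit cell markers Muc5ac, Tff1, Gkn1 and Gkn2 were listed but are not among the 15156 genes with values, so their levels are not known here. Of 18 intestinal epithelium genes 4 were tested, with 0 calls, 3 positive differences and a median of 0.61 that was 0.01 with no filter on low values. Among them Krt20, a keratin also listed with the ductal genes, had 262, 227, 388 and 685 in MC and 320, 40.7, 34.3 and 148 in WT, which overlap (1.96, limma adjusted p = 0.219). Of 21 transcription factors of the gut and foregut, 18 had a positive difference (85.7%, against 47.1% of all genes) and 1 rose (4.76%, against 0.485%). That was Foxq1, a forkhead factor that drives Muc5ac in mouse stomach, at 27.0, 23.8, 24.3 and 33.4 in MC and 7.07, 5.42, 3.26 and 2.20 in WT (2.43 ± 0.42, limma adjusted p = 0.0159). Its call ended without MC replicate 4 (2.20 to 2.65 over single libraries left out). Foxq1 also needed MC and DMC libraries to pass the filter on low values, being under 10 in every WT library and at 13.5, 7.47, 6.84 and 3.30 in DC. Pdx1, the pancreas and antrum factor whose promoter drives the Cre, was at 90.7, 125, 148 and 192 in MC and 126, 123, 71.8 and 172 in WT.

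Genes outside the stomach lists rose as well; these and the next genes were partly chosen after their values were seen. Alb, serum albumin, had 301, 198, 208 and 190.1 normalized counts in MC and 101, 75.9, 71.0 and 96.6 in WT (1.36 ± 0.18, limma adjusted p = 0.00365). F2, prothrombin, had 158, 130.2, 136 and 121 in MC and 63.6, 57.9, 38.3 and 51.6 in WT (1.37 ± 0.27, limma adjusted p = 0.0284). Azgp1, a secreted lipid-mobilizing glycoprotein, had 328, 198, 289 and 102 in MC and 47.7, 26.2, 28.6 and 59.3 in WT (2.42 ± 0.36, limma adjusted p = 0.00575). Serpina5, an inhibitor of serine proteases, had 17.2, 54.0, 69.7 and 66.0 in MC and 5.30, 9.95, 1.63 and 7.69 in WT (2.89 ± 0.63, limma adjusted p = 0.0459), and Tmprss13, a membrane serine protease, had 73.5, 85.7, 151 and 73.3 in MC and 14.1, 23.5, 2.45 and 11 in WT (3.05 ± 0.59, limma adjusted p = 0.0276). Both needed MC or DMC libraries to pass the filter on low values. Serpina5 was under 10 in every WT library and at 7.35, 11.6, 2.28 and 3.30 in DC, and Tmprss13 was under 10 in every DC library. Fabp5, an epidermal-type fatty acid carrier, was at 910.5, 808, 756 and 975 in MC and 276, 314, 447 and 457 in WT. Iyd, which recovers iodide from iodotyrosines in the thyroid, was at 230.4, 225, 208 and 141 in MC and 77.8, 43.4, 45.7 and 32.9 in WT, and Atp7b, the copper pump of liver, at 113, 105, 102 and 173 in MC and 19.4, 30.7, 28.6 and 20.9 in WT. Alb, Azgp1, Fabp5, Iyd and Atp7b kept their calls without any single library. With WT replicates 2 and 3 both left out, that of Iyd was lost (limma adjusted p = 0.0605). F2 lost its call without any single MC library or WT replicates 2 or 3 (1.23 to 1.46), Tmprss13 without any single MC library or WT replicate 3 (2.49 to 3.43), and Serpina5 without MC replicates 2, 3 or 4, any single WT library, DMC replicates 1 or 2 or DC replicates 2, 3 or 4 (2.47 to 3.34).

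Bglap3, an osteocalcin family gene, had 619, 214, 359 and 546 normalized counts in MC and 99.0, 53.3, 62.8 and 37.3 in WT (2.74 ± 0.39, limma adjusted p = 0.00508). Its near-identical relatives lie beside it, and how reads were split among them is uncertain. Tbx1, a T-box factor of the pharyngeal foregut, had 19.6, 60.3, 39.4 and 38.4 in MC and 1.77, 8.14, 7.34 and 1.10 in WT (3.04 ± 0.54, limma adjusted p = 0.0182), a call that ended without MC replicates 2 or 4 (2.66 to 3.37 over the fits with a library left out). Tbx1 passed the filter on low values only through MC and DMC libraries, being under 10 in every WT library and at 23.3, 6.64, 5.70 and 5.50 in DC. Slc26a9, an anion channel of gastric and airway epithelium, had 152, 151, 159.7 and 257 in MC and 30.1, 88.6, 35.9 and 46.1 in WT (1.91 ± 0.30, limma adjusted p = 0.00947).

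Gli1, a readout of Hedgehog signalling, rose. Hedgehog ligands relieve repression of SMO by their receptor, and the pathway then raises Gli1 and the receptor gene Ptch1, mostly in stromal cells of the pancreas. Of 15 listed members tested, 0 fell, and the median was 0.16. Gli1, the transcription factor that reports pathway activity, had 52.7, 74.6, 78.8 and 107 normalized counts in MC and 14.1, 15.4, 14.7 and 23.1 in WT (2.14 ± 0.33, limma adjusted p = 0.00723), and kept its call without any single library. It overlaps Arhgap9 on the opposite strand, which had 118, 88.9, 171 and 100.1 in MC and 126, 301, 329.6 and 161 in WT. Ptch1, the main receptor, had 431, 424, 419 and 357 in MC and 205, 259, 275 and 348 in WT, without overlap, and missed the threshold (0.60, limma adjusted p = 0.0991). Smo, which carries the signal, was at a difference of 0.07. The ligand genes Shh and Ihh were not tested, and Dhh was at -0.09.

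Among 26 Wnt pathway genes tested, 21 had a positive difference (80.8%, against 47.1% of all genes), with a median of 0.43. Of these 26, 1 rose (3.85%, against 0.485% of all genes) and 0 fell. The call was Sfrp1, a secreted Wnt antagonist, at 566, 417, 544 and 845 normalized counts in MC and 318, 217, 250.5 and 267 in WT (1.14 ± 0.25, limma adjusted p = 0.0485). That call was lost without any single library of the 8 in MC and WT, DMC replicates 1 or 2 or DC replicates 2 or 3, with differences of 0.95 to 1.29. Of 22 listed imprinted genes tested, 1 rose (4.55%, against 0.485% of all genes). Mest, a paternally expressed hydrolase gene of embryonic and growing tissue, had 266, 416, 367 and 776 in MC and 164, 140.1, 162 and 164 in WT (1.42, limma adjusted p = 0.0317), a call lost without MC replicates 2, 3 or 4 or WT replicates 1, 2 or 3 (1.12 to 1.64). Peg3, another paternally expressed gene, had 2457, 2881, 3376 and 5255 in MC and 1082, 1674, 759.6 and 1616 in WT and missed the threshold (1.45, limma adjusted p = 0.0608). Peg12, which was not on the list, was called as higher in MC. It kept that call in 3 of the 16 fits with a library left out (1.91 to 2.65).

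Tdh had the deepest fall of any abundant gene. It encodes mitochondrial threonine dehydrogenase, which in mice breaks threonine down to glycine and acetyl units. Its level was 125, 122, 85.9 and 116 normalized counts in MC and 2714, 1716, 959 and 495 in WT, so the lowest WT library was still above every MC library. The difference was -3.44 ± 0.39 (SE, limma adjusted p = 0.000526), and the call held without any single library. No other gene of the list of threonine, glycine and serine metabolism passed. Of 16 tested, 1 fell (6.25%, against 0.295% of all genes), 0 rose and 15 did not pass, with a median of -0.08. Gcat, the next enzyme of the threonine route, had 975, 946, 577 and 485 in MC and 923, 698, 658 and 931 in WT.

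A cluster of N-acetyltransferase genes on chromosome 6 fell together. Nat8, which in kidney and liver acetylates cysteine conjugates, had 11, 14.3, 22.2 and 10.2 normalized counts in MC and 191, 106, 62.0 and 85.6 in WT (-2.80 ± 0.38, limma adjusted p = 0.00376). Nat8f2 had 2.45, 1.59, 9.10 and 6.53 in MC and 166, 63.3, 17.9 and 31.8 in WT (-3.32 ± 0.64, limma adjusted p = 0.0275), and Nat8f5 had 0, 3.17, 2.02 and 0 in MC and 68.9, 53.3, 17.9 and 6.59 in WT (limma adjusted p = 0.0205). The starts of Nat8f5 and Nat8 lie 13170 bases apart and those of Nat8 and Nat8f2 35034. They were the only called genes with another called gene starting within 200 kb, but the family is near-identical in sequence, so how reads were divided among its members is uncertain. Nat8 kept its call without any single library. Nat8f2 lost it without MC replicates 1, 2 or 4 or WT replicates 1 or 2 (-3.79 to -2.74) and Nat8f5 without MC replicates 1 or 4 or WT replicate 2 (-4.46 to -3.40). Bdh1, the mitochondrial enzyme that interconverts the ketone bodies, had 11, 22.2, 30.3 and 55.1 in MC and 202, 148, 85.7 and 57.1 in WT (-2.07 ± 0.44, limma adjusted p = 0.0421). MC replicate 4 and WT replicate 4 lay side by side for it, and its call was lost without MC replicates 1, 2 or 3, WT replicates 1, 2 or 3, DMC replicates 1, 2 or 4 or DC replicates 2 or 3 (-2.43 to -1.69). With Nat8 it made the 2 falls among 19 genes of ketone, polyamine and amino acid handling, where 0 rose, 15 of the differences were negative and the median was -0.21.

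Other falls were of surface receptors, secreted factors and signalling genes. Zc3h12b, a gene of the Regnase family of RNA-degrading proteins, had 18.4, 28.6, 26.3 and 31.9 normalized counts in MC and 129, 104, 80.8 and 136 in WT (-2.05 ± 0.22, limma adjusted p = 0.000436). Ccbe1, a secreted factor needed to process the lymphatic growth factor VEGFC, had 62.5, 79.4, 82.9 and 66.0 in MC and 228, 331, 294 and 401 in WT (-2.07 ± 0.34, limma adjusted p = 0.0108). Gfra1, the GDNF co-receptor, had 107, 114, 96.0 and 192 in MC and 447, 414, 295 and 322 in WT (-1.56 ± 0.22, limma adjusted p = 0.00508). Rftn2, a lipid raft protein, had 44.1, 57.1, 55.6 and 74.7 in MC and 202, 159, 153 and 215 in WT (-1.65 ± 0.24, limma adjusted p = 0.00508). These 4 genes kept their calls without any single library.

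For several other falls the call, though not the direction, was lost when single libraries were left out. Susd3, a small membrane protein, had 24.5, 27.0, 38.4 and 23.9 normalized counts in MC and 145, 243, 290.4 and 147 in WT, a clear gap, yet its call was lost without any single MC library, WT replicates 1, 2 or 3 or DC replicates 2 or 3 (-2.77 ± 0.58, limma adjusted p = 0.0364; -2.92 to -2.59 over single libraries left out). Nexmif, an X-linked gene of neurite growth, had 12.3, 14.3, 4.04 and 13.1 in MC and 63.6, 54.2, 37.5 and 42.8 in WT (-2.18 ± 0.42, limma adjusted p = 0.0262), lost without MC replicates 1 or 4 or WT replicates 1 or 2 (-2.34 to -1.81). Cldn6, an embryonic tight junction protein, had 33.1, 28.6, 35.4 and 31.9 in MC and 91.9, 164, 54.7 and 85.6 in WT (-1.48, limma adjusted p = 0.0317), lost without any single MC library or WT replicates 1 or 2 (-1.73 to -1.21). Tmem35a, an assembly factor of nicotinic receptors, and Doc2b, a calcium sensor of vesicle release, fell to 6.13 to 21.8 and 6.35 to 13.1 in MC, against 24.5 to 72.5 and 23.1 to 53 in WT (limma adjusted p = 0.0375 and 0.0442). Tmem35a lost its call without MC replicates 1, 2 or 3, WT replicates 1, 2 or 4, DMC replicates 1 or 2 or DC replicate 2 (-2.25 to -1.65), and Doc2b without any single MC library, WT replicates 1, 2 or 3, DMC replicates 1 or 2 or DC replicates 2 or 3 (-1.94 to -1.53). Obp2b, an odorant binding protein gene, had 0, 0, 0 and 2.90 in MC and 8.84, 9.04, 22.0 and 13.2 in WT (limma adjusted p = 0.0128). It kept its call without any single library, but not with WT replicates 2 and 3 both left out.

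**Figure D3:**
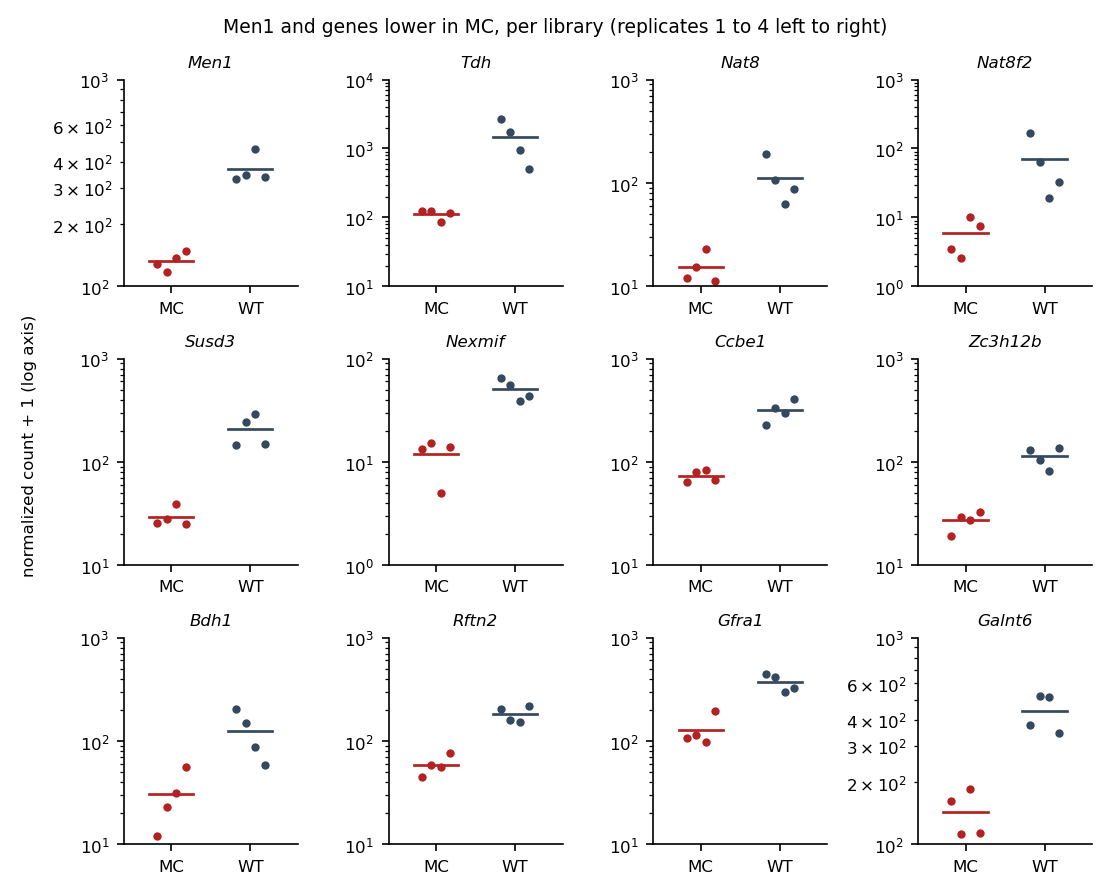
Normalized count plus 1 on a log axis for Men1 and 11 genes lower in MC, a point per library with MC left of WT and a bar at the group mean (n = 4 each). No MC library reaches a WT library for any of the 12; the gap is narrowest for Bdh1, 55.1 in MC replicate 4 against 57.1 in WT replicate 4.

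The exocrine pancreas itself showed 0 calls in its main lists. Digestive enzymes are the bulk product of acinar cells. Of 32 tested 29 had a negative difference (9.38% positive, against 47.1% of all genes), with a median of -0.29. Of the 32, 0 were called and 3 reached an unadjusted p under 0.05 (9.38%, against 12.7% of all genes). Cel, the bile salt lipase, ranged from 873979.9 to 1460858 normalized counts in MC and from 1045820.0 to 1991841 in WT. Ctrl, a chymotrypsin-like protease, did not overlap, at 209444, 205686, 193038 and 92723 in MC and 647552, 327963, 290203 and 500441 in WT, and missed the threshold (-1.33, limma adjusted p = 0.157). Acinar transcription factors and secretory genes gave 0 calls of 16 (1 unadjusted) with a median of -0.08, and the Reg family, secreted lectins of pancreatic injury, 0 of 6 (1 unadjusted). For ductal and metaplasia genes, which mark duct cells and acinar cells turning duct-like, all 24 differences were positive (47.1% of all genes were) with a median of 0.45, while 0 passed. At an unadjusted p under 0.05, 7 were higher (29.2%, against 7.51% of all genes). Sox9, the duct progenitor factor, had 353, 317, 316 and 432 in MC and 212, 139, 113 and 325 in WT, with WT replicate 4 inside the MC range. With both WT libraries of high lymphoid level left out, the medians were -0.63 for the enzymes and 0.21 for the ductal genes.

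Tuft cells are chemosensory cells that appear in the pancreas after injury. Of 10 listed tuft genes tested, 9 were positive (90.0%, against 47.1% of all genes) and 0 passed, with a median of 0.73. At an unadjusted p under 0.05, 4 were higher (40.0%, against 7.51% of all genes). Sh2d6 was listed but below the filter. Its relative Sh2d7, called above (limma adjusted p = 0.00947), was not on the list. Avil, which encodes advillin, an actin regulator used as a tuft marker, did not overlap, at 57.6, 39.7, 66.7 and 223 normalized counts in MC and 12.4, 28, 18.8 and 9.88 in WT (2.19, limma adjusted p = 0.0668). Pou2f3, the tuft cell master factor, was below the filter, with 0 to 23.9 in MC and 0 to 1.81 in WT. Mean log2 levels over these genes were 6.24 to 7.64 in MC and 5.55 to 6.19 in WT. Without WT replicate 1 the median was 0.40.

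Endocrine genes outside the hormones were positive almost throughout, at 31 of 32 (96.9%, against 47.1% of all genes) with a median of 1.01, but 0 passed. At an unadjusted p under 0.05, 13 were higher (40.6%, against 7.51% of all genes). Scg2, the granule protein secretogranin II, had 1691, 2538, 6517 and 6873 normalized counts in MC and 847, 1875, 297 and 1231 in WT, so MC replicate 1 lay inside the WT range. Of 8 islet hormones, Ghrl alone passed (12.5%, against 0.485% of all genes higher). Ins2 ranged from 7046 to 31426 in MC and from 3196 to 15863 in WT, and Gcg from 1009.7 to 17797 in MC and from 3282 to 13891 in WT. Without WT replicate 3, the library with the lowest islet levels, the medians were 0.71 for the endocrine genes and 0.30 for the hormones.

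The listed connective tissue genes had mostly positive differences and gave 0 calls. Of 39 collagen and matrix genes, 37 were positive with a median of 0.44 and 17 reached an unadjusted p under 0.05 in the higher direction, as did 7.51% of all genes. Col1a1, the main fibrillar collagen, had 1936, 4279.8, 2534 and 3297 normalized counts in MC and 1243, 1927, 1891 and 1913 in WT, every MC library above every WT library (0.75, limma adjusted p = 0.286). Thbs4, a matrix thrombospondin, went against the list with 47.8, 63.5, 24.3 and 57.3 in MC and 205, 141, 72.6 and 82.4 in WT (limma adjusted p = 0.22). Genes outside these lists were called, among them Thbs3, Cygb and Itgbl1 as higher and Adamts9 as lower. Their log2 differences over the alternatives were 0.94 to 1.13, 1.0 to 1.24, 1.12 to 1.45 and -0.95 to -0.76, and each call was lost in some of them. The fibroblast and stellate list had 22 of 27 positive (81.5%, against 47.1% of all genes) and a median of 0.28. The mean log2 level of the collagen list was 9.60 to 10.11 in MC and 9.17 to 9.41 in WT, and its median was 0.32 without MC replicate 4.

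Immune lists differed in direction and gave 1 call between them, in the dendritic cell list (6.25% of its 16 genes tested, against 0.295% of all genes lower). All 16 B and plasma cell genes were negative with a median of -2.09 and 0 passed. At an unadjusted p under 0.05, 7 were lower (43.8%, against 5.24% of all genes). Cd79a, part of the B cell receptor, had 6.13, 30.2, 55.6 and 13.1 normalized counts in MC and 12.4, 219.7, 347 and 50.5 in WT, where replicates 2 and 3 carried the high values. The T and NK cell median was -1.08, and 0.48 with those 2 libraries left out. Of 41 interferon-stimulated genes 37 were positive (90.2%, against 47.1% of all genes), with a median of 1.01 and 0 calls. In the higher direction 24 reached an unadjusted p under 0.05 (58.5%, against 7.51% of all genes). Ifit3, an interferon-induced antiviral protein, had 407, 335, 339.6 and 449.7 in MC and 21.2, 77.8, 301 and 67.0 in WT (2.30, limma adjusted p = 0.0575). The median of the interferon list was 0.64 without WT replicate 1 and 1.70 without both WT libraries of high lymphoid level. Neutrophil genes had a median of 1.26 over 9 tested, with Il1b at 40.4, 33.3, 28.3 and 58.8 in MC and 7.07, 9.04, 16.3 and 5.49 in WT (limma adjusted p = 0.0777). The macrophage list had 20 of 26 positive (76.9%, against 47.1% of all genes), a median of 0.38 and 0 calls. Zbtb46, a factor of classical dendritic cells also found in endothelium, was the call, lower at 224, 260.3, 298 and 218 in MC and 419, 339, 359.8 and 443 in WT (-0.64, limma adjusted p = 0.0309), a call lost without MC replicates 1, 2 or 4 or WT replicates 1, 3 or 4 (-0.73 to -0.58).

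Fat and steroid-responsive genes had negative medians, again with 0 calls in each. All 21 adipocyte genes were negative with a median of -0.87 (4 unadjusted), and the median was -0.41 with the lymphoid level as a covariate. Pparg, the adipocyte master factor, had 52.7, 39.7, 69.7 and 53.7 normalized counts in MC and 120.2, 95.8, 84.9 and 93.3 in WT. All 13 genes that answer to glucocorticoids were negative with a median of -0.59, and 6 of the 13 did not overlap, where 3.23% of all genes were lower in MC without overlap. Zbtb16, a zinc finger factor, had 251, 192, 358 and 218 in MC and 1018, 1136, 1514 and 560.0 in WT (-2.0, limma adjusted p = 0.0877), and Fkbp5, the immunophilin that tempers the glucocorticoid receptor, had 406, 335, 788 and 441 in MC and 1844, 2107, 1908 and 975 in WT (limma adjusted p = 0.158). A clock level, from genes of opposite phase, was -0.79 to -0.18 in MC and -0.48 to 2.28 in WT; with it as a covariate 37 of the 111 calls held.

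**Figure D4:**
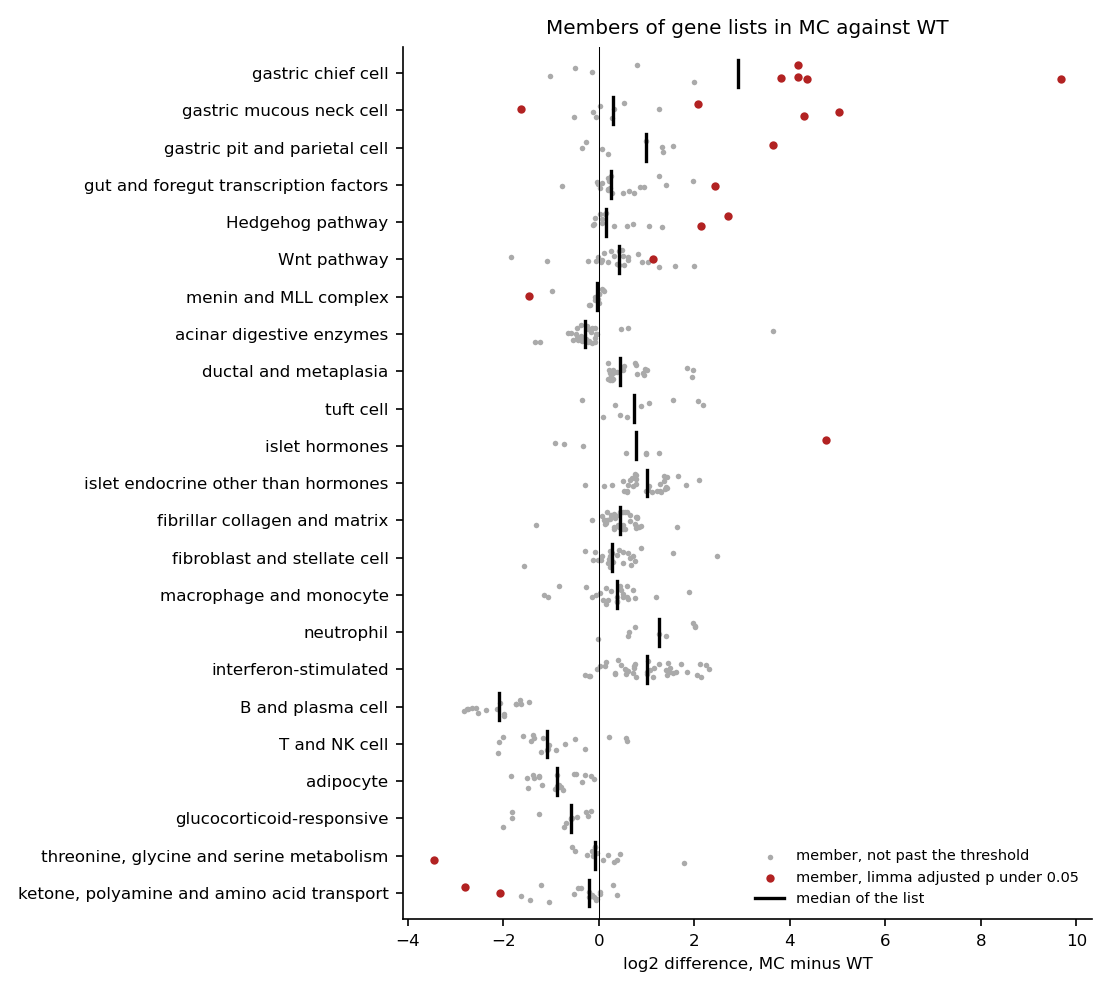
Log2 difference of MC minus WT (horizontal axis) for the members tested of 23 gene lists, a point per gene and a black bar at the median of each list. Red points passed an adjusted limma p of 0.05; they gather in the chief and neck cell lists, while the collagen, ductal, endocrine and interferon lists lie right of 0 and the B cell, adipocyte and glucocorticoid lists left of 0 with no red point.

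The same Men1 deletion on a background of floxed Daxx gives a separate readout, DMC against DC, which shares no library with MC against WT. There 76 genes passed (0.534%), 38 higher (0.267%) and 38 lower (0.267%). The count was 14, 20 and 22 without DC replicates 3, 2 and 4, 23, 45 and 48 without DMC replicates 4, 3 and 1, 115 without WT replicate 3 and 188 without DC replicate 1. Men1 had 157, 175, 161 and 178 normalized counts in DMC and 397, 481, 508 and 541 in DC, and its difference of -1.51 (limma adjusted p = 3.51e-05) was near that of -1.47 in MC against WT. Of the 111 genes called in MC against WT, 97 (87.4%) had the same sign in DMC against DC, compared with 56.5% of all genes. That share was 73.9% with the lymphoid level as a covariate and 68.6% without the 2 WT libraries of high lymphoid level, when all genes shared a sign in 51.6% and 53.9%. The genes called in both numbered 28, all of the same sign, 25.2% of the 111 and 36.8% of the 76. The 69 higher genes had medians of 2.03 in MC minus WT and 1.05 in DMC minus DC, and the 42 lower genes -1.28 and -0.85. Genes picked for a large difference in the MC contrast are bound to look smaller elsewhere, so these medians do not compare the size of the effect.

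Chief cell genes were also called in DMC against DC. Cym had 816, 4329, 427 and 1790.1 normalized counts in DMC and 1.84, 1.66, 0 and 2.20 in DC (9.18, limma adjusted p = 6.35e-05). Pgc had 879.7, 8974, 1002 and 10444 in DMC and 181, 160.1, 228 and 29.7 in DC (4.65, limma adjusted p = 0.0191), and Pga5 had 352, 3322, 389 and 2049 in DMC and 72.2, 105, 125 and 40.7 in DC (3.62, limma adjusted p = 0.0266). In this genotype replicates 2 and 4 were the high libraries. The chief cell list had a median of 3.01 and 5 of its 10 tested members called, Gif and Lgr5 beside these 3, where 0.267% of all genes were called higher. Slc9a4 missed the threshold there (2.72, limma adjusted p = 0.118). The neck cell list gave 0 calls, with Gkn3 at 4.45 and Muc6 at 3.39 (limma adjusted p = 0.0598 and 0.123), and Ghrl also missed it (3.47, limma adjusted p = 0.0709). Alb, at 332, 388, 272 and 297 in DMC and 71.6, 98.7, 94.6 and 77.0 in DC, and F2, at 110.2, 94.1, 248 and 99.6 in DMC and 26.9, 39.8, 29.6 and 35.2 in DC, passed in DMC against DC as well (limma adjusted p = 6.35e-05 and 0.00422). Among the falls, Ccbe1, Rftn2, Zc3h12b and Cldn6 were called in both contrasts.

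Whether the MC change differs with Daxx was tested by the interaction, DMC minus DC less MC minus WT. It gave 0 calls by limma and 0 by edgeR, 43 by DESeq2, and 1156 genes (8.13%) at an unadjusted p under 0.05, with a smallest adjusted p of 0.0817. Of the 111 genes, 47 (42.3%) reached an unadjusted p under 0.05, but they had been chosen on the MC and WT libraries that enter this contrast, so nothing is read from that share. Tdh had 464, 637, 763 and 774 normalized counts in DMC and 1295, 1926, 1019 and 1955 in DC, a difference of -1.21 (limma adjusted p = 0.191) against -3.44 in MC minus WT; the interaction was 2.24 ± 0.55 (unadjusted p = 0.000857, limma adjusted p = 0.335). Steap3, a ferrireductase of iron uptake, carried the smallest p: it had 361, 362, 220.3 and 289 in MC and 216, 159, 165 and 169 in WT, but 167, 158, 185 and 181 in DMC and 286, 304, 279 and 242 in DC (unadjusted p = 6.43e-06, limma adjusted p = 0.0817). The MC against WT call of Steap3 was lost without MC replicates 1, 2 or 4 or WT replicates 2, 3 or 4 (0.69 to 0.93) and that of Gabrp without MC replicates 1 or 4 (2.54 to 3.24). Gabrp, a GABA receptor subunit made by epithelia, had 110.3, 39.7, 97.0 and 173 in MC and 7.07, 15.4, 22.0 and 8.78 in WT, and 53.7, 75.1, 50.9 and 101 in DMC and 213, 59.7, 36.5 and 55.0 in DC. Abca5, a lipid transporter, had 344, 295, 334 and 392 in MC and 645, 539, 531 and 658 in WT, and 482, 486, 515 and 594 in DMC and 515, 522, 487 and 608 in DC. None of these differences between the contrasts passed the adjusted threshold. The list medians parted for interferon genes, 1.01 in MC minus WT and 0.04 in DMC minus DC, for collagen genes, 0.44 and -0.44, and for B and plasma cell genes, -2.09 and 0.20; these were not tested as lists.

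**Figure D5:**
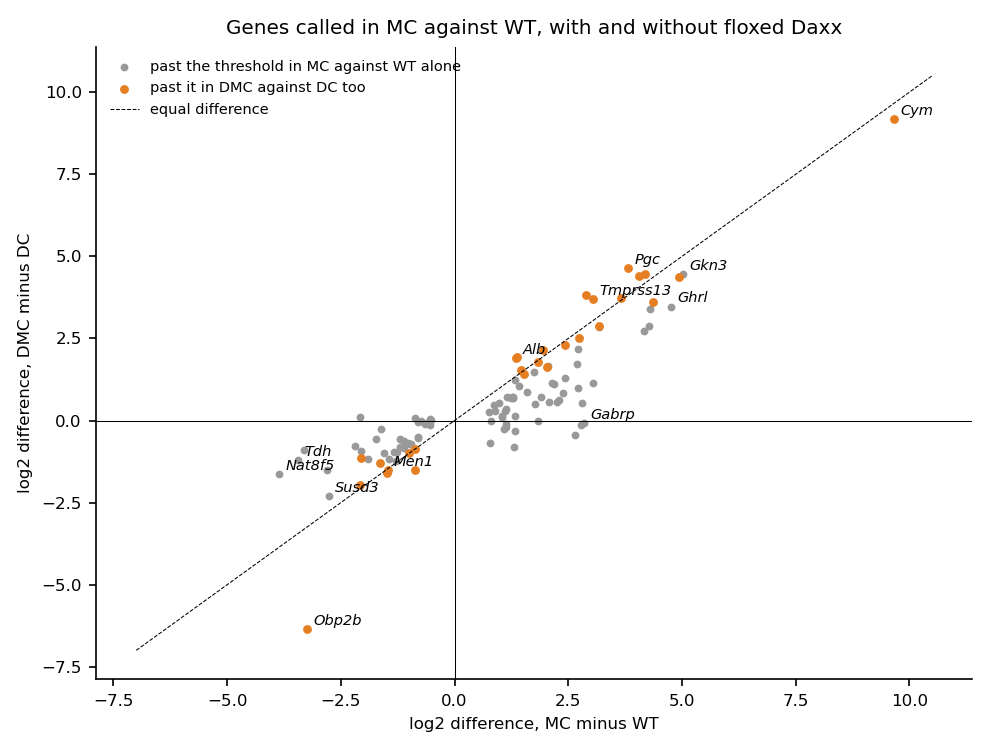
Log2 difference of DMC minus DC (vertical axis) against that of MC minus WT (horizontal axis) for the 111 genes called in MC against WT, with a dashed line of equal difference. Orange points are the 28 genes called in both; 97 of the 111 points have the same sign on both axes, and Gabrp lies on the horizontal line at 2.84.

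MC was also set directly against DC, floxed Men1 against floxed Daxx, both with the Cre transgene and both after caerulein. Of 14220 genes, 195 passed (1.37%), 84 higher in MC (0.591%) and 111 lower (0.781%). Cym, Pga5, Pgc, Gif, Slc9a4, Muc6, Ghrl, Alb and Azgp1 were higher in MC here too, with log2 differences of 9.89, 4.57, 3.56, 3.81, 3.18, 4.05, 3.81, 1.37 and 2.33 (limma adjusted p of 0.0414 or less). Tdh, Nat8 and Zc3h12b were lower in MC than in DC, with log2 differences of -3.74, -2.61 and -1.79 (limma adjusted p = 0.000177, 0.00361 and 0.0013). Sfrp1 and Gabrp, called in MC against WT, were not past the threshold against DC (0.15 and 0.38, limma adjusted p = 0.858 and 0.819): Sfrp1 had 566, 417, 544 and 845 normalized counts in MC and 779, 481, 528 and 362 in DC. Bglap3 had 619, 214, 359 and 546 in MC and 326, 731, 338 and 619.6 in DC (-0.24, limma adjusted p = 0.856). Against WT, DC passed for 3 genes (0.0211%). The clock level separated the groups of this comparison completely, at -0.79 to -0.18 in MC and 2.13 to 3.59 in DC, and 4 genes passed with it as a covariate. Leaving out DC replicate 2, 4 or 3 gave 49, 50 or 83 calls, and leaving out MC replicate 2, 1 or 3 gave 65, 81 or 118.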

How the data were processed

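Total RNA of caerulein-treated mouse pancreas was sequenced, 4 libraries for each of 4 genotypes, which the labels call independent biological replicates. Per the submitters' processing notes, reads were aligned with STAR 2.6.0b to GRCm38 and scaled with DESeq2; which counter, annotation, filter and strand setting they used is not given in the sources used here. Values deposited as signal are normalized gene counts, reads divided by the authors' size factors. They step in whole reads: all genes came out within 0.01 reads, each gene having at least 33 reads and reads in at least 4 libraries. Reads recovered in this way served edgeR 4.0.16 and DESeq2 1.42.0, which called 111 genes (100 of them shared with limma) and 391 genes in MC against WT.

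The test was limma 3.58.1 (trend) in R 4.3.3 on log2(normalized count + 1), a pseudocount that shrinks differences of low genes, over all 16 libraries with a coefficient per genotype and Benjamini-Hochberg adjustment over 14220 genes at 0.05. A gene or list level is a mean log2 value; SE is from limma. Annotation was GENCODE mouse release 21 (15152 IDs matched, 4 not). No 2 libraries of a group agreed within sampling noise. Beside Men1, genes named were the 15 largest rises and 15 largest falls among called genes with a mean of at least 20, no overlap and an established symbol, then up to 4 called members per list, or the most abundant; others were chosen after their values were seen. A result under this rule is not reported here. The genes, the 45 lists and the tests were chosen with earlier results of these data known. Alternatives were other pseudocounts, filters, scaling, weights, fits and tools, a replicate block, each library left out, and, added after the data were seen, WT replicates 2 and 3 left out and lymphoid, clock or Y-linked levels as covariates.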

Additional observations from a re-analysis of the deposited data

Results flagged for a closer look

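With 4 libraries a group, a library was singled out when its gap to the nearest other took more of the group's range than Dixon's 95% critical value. Of 260 groups tested 31 were singled out (11.9%). The nominal rate of 5.0% holds for independent, normally distributed values. Genes were tested here on normalized counts without logs, many were chosen after their values were seen, and several vary together. The 5.0% is therefore not the rate by chance for these groups, and nothing is read from the share singled out. MC replicate 4 stood apart most often. It was highest for Cym (9856 normalized counts), Gkn3 (7059.6), Gif (3848), Slc9a4 (317), Slc26a9 (257), Avil (223), Atp7b (173), Sh2d7 (165), Vsig1 (100.1) and Obp2b (2.90), and lowest for Ctrl (92723) and Ptch1 (357). Its mean log2 levels were also the highest of MC for pit and parietal cell genes (7.31) and for collagen and matrix genes (10.11).

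Among the other MC libraries, replicate 1 was highest for Alb (301) and the Reg family level (14.28), replicate 2 lowest for Cdkn1b (514), the neutrophil level (4.41) and the G1 and S phase level (7.78), and replicate 3 highest for Tmprss13 (151) and the B and plasma cell level (6.48).

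In WT, replicate 4 was highest for Ctrc (189195), Gm10036 (547), Gli1 (23.1) and Ghrl (16.5). WT replicate 3 was highest for Men1 (459), Sftpd (62.8) and the endothelial level (7.49), replicate 1 highest for the smooth muscle level (7.0) and lowest for Col1a1 (1243), and replicate 2 lowest for Mest (140.1). No gene met the adjusted threshold for a difference between the change in MC against WT and that in DMC against DC.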

How the results depend on the processing

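The fall of Men1 kept its direction and its call in all 31 alternatives, with log2 differences of -1.52 to -1.34, and no called gene changed sign. The 111 calls in MC against WT became 391 with DESeq2 (243 higher, 148 lower), 265 with library quality weights, 67 with the compared groups alone, 44 with the clock level as a covariate and 38 to 189 with a library left out. The 76 calls in DMC against DC became 345 with DESeq2, 1655 with quality weights, 7 with the clock and 148 with the lymphoid level as a covariate, 117 without both WT libraries of high lymphoid level, and 14 to 188 with a library left out. For the interaction, 0 calls became 43 with DESeq2, 11 with quality weights, 5 without those WT libraries, 2 with a pseudocount of 5, 1 with the Y-linked level as a covariate and 0 to 8 with a library left out (8 without WT replicate 4, 6 without WT replicate 3, 2 without WT replicate 1, 1 without MC replicate 3). The 195 calls in MC against DC became 500 with DESeq2, 1033 with quality weights, 4 with the clock level as a covariate and 49 to 253 with a library left out. The same-sign share of 87.4% was 68.6% without those WT libraries, 73.9% with the lymphoid and 100% with the clock level as a covariate, 94% with the compared groups alone and 80.1% to 97.9% with a library left out. Same-numbered libraries did not deviate together (correlations of -0.13 to 0.20 for MC and WT, -0.19 to 0.13 for DMC and DC, -0.37 to 0.15 for MC and DC). The Y-linked level did follow the numbers in MC and WT, high in replicates 1 and 2 and low in replicates 3 and 4 of both. With a replicate block the counts were 46, 37, 0 and 110 and the same-sign share 97.8%. The cause of these shifts was not tested. Of 1395 list medians under the alternatives, 1374 stayed within 1 SD of the main median, the SD being that of the list level between libraries of a group. That band is wide. The B and plasma cell median ran from -3.07 to -0.42 and the Reg family median from -0.23 to 0.86 without leaving it, so the count does not show that the medians are stable. Depth limits genes near the floor of 3 reads.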

Other observations

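Further called genes, chosen after their values were seen, were higher in MC than in WT and higher in DMC than in DC. Kcnk3, an acid-sensitive potassium leak channel, had 45.3, 41.3, 60.6 and 75.4 normalized counts in MC and 14.1, 20.8, 8.97 and 16.5 in WT, and 39.2, 71.0, 60.1 and 48.4 in DMC and 19.6, 7.47, 20.5 and 15.4 in DC (1.83 and 1.79 on the log2 scale, limma adjusted p = 0.0236 and 0.0265). C1qtnf1, a secreted adiponectin relative, had 178, 192, 131 and 357 in MC and 60.1, 65.1, 67.7 and 85.6 in WT, and 293, 269, 492 and 370.1 in DMC and 159, 97.1, 186 and 95.8 in DC (1.52 and 1.42, limma adjusted p = 0.0262 and 0.0365). Tnfsf15, a cytokine of the TNF family, had 83.3, 52.4, 47.5 and 36.3 in MC and 8.84, 9.95, 15.5 and 14.3 in WT (2.06, limma adjusted p = 0.026), with 13.7, 24.4, 56.2 and 46.6 in DMC and 9.18, 9.13, 7.98 and 9.91 in DC, which missed the threshold (1.66, limma adjusted p = 0.0738). Tnfsf15 needed MC or DMC libraries to pass the filter on low values, being under 10 in every DC library and in WT replicates 1 and 2.

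Further falls included nucleoside, lipid and cyclic nucleotide genes. Slc28a3, a concentrative nucleoside transporter, had 209.5, 246, 242 and 203 normalized counts in MC and 396, 344, 507 and 409.6 in WT, and 239.5, 186, 268 and 259 in DMC and 460.3, 721, 937 and 659 in DC (-0.87 and -1.51, limma adjusted p = 0.0422 and 0.00146). Asah2, the neutral ceramidase of gut epithelium, had 329.6, 316, 354 and 332 in MC and 829, 472, 697 and 739 in WT, and 294, 307, 466 and 325 in DMC and 545, 789.8, 627 and 777 in DC (-1.01 and -0.98, limma adjusted p = 0.0178 and 0.0226). Pde3b, the phosphodiesterase through which insulin lowers cyclic AMP, had 621, 573, 539 and 454 in MC and 875, 796, 987 and 1155 in WT (-0.80, limma adjusted p = 0.0098), with a difference of -0.49 in DMC minus DC that missed the threshold (limma adjusted p = 0.113).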
